A study of Caenorhabditis elegans with 7 samples.

Results

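The 390 regions of chromosome II at which PHA-4::GFP was called in young adult hermaphrodites of Caenorhabditis elegans are described here. They were chosen by position alone, as every peak of the combined list that lies on chromosome II, out of 2436 peaks on 6 nuclear chromosomes, and neither strength nor width entered the choice. Chromatin immunoprecipitation sequencing (ChIP-seq) was done on strain OP37, which carries the mutation unc-119(ed3) on chromosome III and the transgene wgIs37, grown at 20 °C and fixed with 2% formaldehyde. The transgene, introduced by bombardment, joins a working copy of unc-119 to pha-4 tagged with TY1, EGFP and 3xFLAG, and per the labels the fusion is made where and when pha-4 normally is. All samples carried both, and there was 1 condition. Replicate 1 had 2 ChIP samples and replicate 2 had 2, all collected with a goat antibody against GFP, and 3 input samples of unselected DNA belonged to replicate 2. Besides the combined list, a list was deposited for each replicate, and these held 74 chromosome II peaks of 418 for replicate 1 and 300 of 1834 for replicate 2. Coordinates are those of WormBase WS190, counted from 1.

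PHA-4 is the worm's FoxA protein, a transcription factor with a forkhead domain that recognises DNA directly and is needed to specify the pharynx, the feeding organ of the foregut. It stays active after development in the pharynx, the intestine and other tissues, and it is required for the longer life of worms under dietary restriction. FoxA proteins are known as pioneer factors, able to bind their sites in closed chromatin and to prepare them for other regulators. Chromosome II is an autosome. Worm autosomes have a central part rich in conserved genes and arms in which repeats and recombination are more frequent. Whole animals were used, so binding in few cells and weak binding in many cells cannot be told apart. No gene or sequence is assigned to a region, because a genome or annotation of WS190 was not used here.

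Each peak came with its first and last base and a q-value, which is a p-value adjusted for multiple testing that PeakSeq computed from ChIP against input reads. Strength below is −log10 of that q-value, so larger is stronger, and the largest q in any list was 9.99e-03. Wide regions can reach small q-values at equal occupancy. Depth is unknown, since the lists hold no read counts. Strengths were therefore ranked within a list only. Where q-values of a region are set side by side from different lists, a difference is not read as a property of the region. The longer replicate 2 list cannot be told apart from a deeper or differently controlled one. Intervals are 95% exact binomial intervals over peaks, so they reflect the number of peaks counted and not the spread between worm cultures. With 1 list per replicate the values below are descriptions that carry no test.

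Chromosome II was bound at 25.9 peaks per Mb over 15.1 Mb, from the first to the last peak of any list at 155926 and 15233076. The other 5 chromosomes ran from 16.7 per Mb on V to 29.9 on III. Its peaks made up 16.01% of the combined list (95% interval 14.6 to 17.5), 16.4% of the replicate 2 list and 17.7% of the replicate 1 list. They covered 360.7 kb, or 2.39% of the span, and on this measure II stood second after III (2.45%), with V lowest at 1.78%. Most regions were short. The median width on II was 498 bp (95% interval 453 to 531) and the middle 50% of widths lay between 343.2 and 882.8 bp, while the medians of the other chromosomes ran from 467 bp on IV to 550 bp on X. Median strength was 3.54 on II (3.30 to 3.71), against 3.29 to 3.50 elsewhere, so its interval held every one of those medians except that of chromosome I. Chromosome II had 18 of the 100 strongest combined peaks.

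Binding was uneven along the chromosome, with a sparse left end and a dense remainder. When the span was divided into 3 equal parts, the left part, up to 5181642, held 81 of the 390 peaks (20.8%, 95% interval 16.9 to 25.1). The middle part held 157 (40.3%, 35.4 to 45.3) and the right part, from 10207360, held 152 (39.0%, 34.1 to 44.0), where even spacing would give 33.3%. The left part was lowest in both replicate lists as well. In replicate 1 it held 13 of 74 peaks (17.6%) and the right part 31, and in replicate 2 it held 66 of 300 (22%) and the right part 106. The combined share of the left part was the lowest among the 6 chromosomes, next to V (21.8%), and the share of the right part was the highest, next to X (37.6%). Intervals of the neighbouring chromosomes overlapped in both cases, and the difference was not tested. In the replicate 2 list the right share of X (36.3%) was above that of II (35.3%). In the replicate 1 list it was below (40.6% on X, 41.9% on II). In peaks per Mb the left part of II (16.1) was denser than the left and right parts of V (10.9 and 14.8). Density of genes along WS190 was not available to set beside these values.

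**Figure D1:**
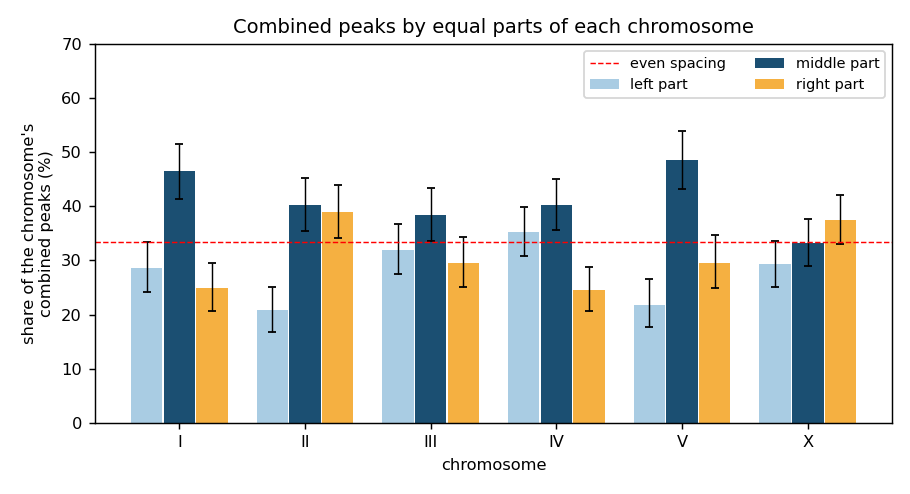
Share of each chromosome's combined peaks (vertical axis, percent) in the left, middle and right of 3 equal parts of its span, for the 6 nuclear chromosomes; error bars are 95% exact binomial intervals and the dashed line is even spacing at 33.3%. On II the left part stands at 20.8% and the middle and right parts at 40.3% and 39.0%.

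The left end held few of the strong and wide regions as well as few peaks. None of the 15 strongest chromosome II peaks lay in the left part. The 50 strongest included 6 of the 81 peaks of the left part, 28 of the 157 in the middle and 16 of the 152 in the right part. By these shares the left part was closer to the right part than to the middle. On the other chromosomes no part held fewer than 11 of the 50 strongest of its chromosome. Of the 42 peaks wider than 2000 bp, 3 were in the left part, 21 in the middle and 18 in the right. Peaks covered 0.992% of the left part, 3.41% of the middle and 2.77% of the right. The median strength did not follow this order, with 3.72 in the left part, 3.43 in the middle and 3.59 in the right. Nor did support in the replicates. Replicate 1 held 16.05% of the combined peaks of the left part, 15.3% of the middle and 18.4% of the right, and replicate 2 held 72.8%, 74.5% and 67.1%.

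By windows of 1 Mb, the densest were 9 to 10 Mb with 36 combined peaks, 11 to 12 Mb with 35 and 5 to 6 Mb with 33. The fewest were 8 at 3 to 4 Mb, 12 after 15 Mb and 15 at 1 to 2 Mb. The window after 15 Mb is cut off at 15233076, where the span ends, so its low count does not make it sparse. The last 5% of the span held 25 peaks, where such parts ranged from 6 to 29. At 9 to 10 Mb the peaks also covered the most sequence, 44.7 kb, closely followed by 43.4 kb at 10 to 11 Mb, while 1 to 2 Mb was covered over 5.71 kb. Replicate 1 called 9 peaks at 9 to 10 Mb, 12 at 10 to 11 Mb and 9 at 11 to 12 Mb, and these 3 windows together held 30 of its 74 peaks. In replicate 2 they held 83 of 300, and in the combined list 100 of 390. From 5 to 12 Mb lay 215 combined peaks (55.1%) and 14 of the 15 strongest. The window from 2 to 3 Mb, picked after its values were seen, departed from its surroundings. Its 21 combined peaks had the highest median strength of any window, 5.66. Of these peaks 6 were in both replicate lists, as many as at 9 to 10 Mb. Yet the strongest of these peaks reached a q of only 1.09e-11. At 13 to 14 Mb, by contrast, a window also picked by its values, 12 of 29 peaks were in neither replicate list, the largest number of any window. Over all of II the share in neither list was 24.6%. The cut-off window after 15 Mb had a higher share than 13 to 14 Mb, with 6 of 12.

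**Figure D2:**
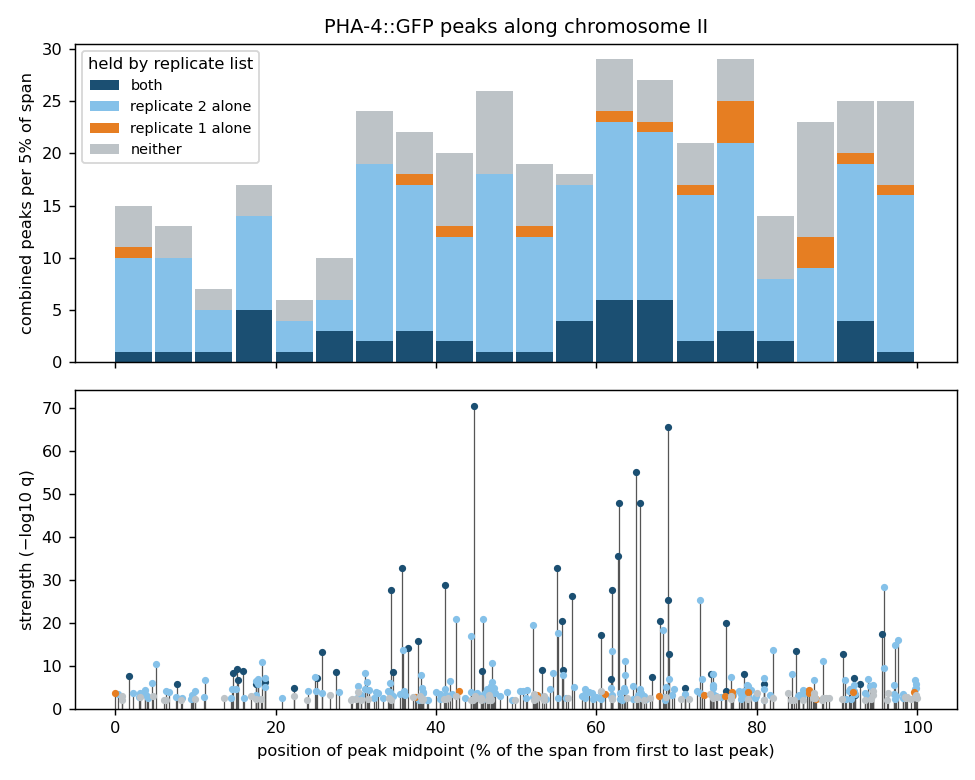
Combined peaks along chromosome II by position in percent of the span from first to last peak. The upper panel gives the number of peaks per 5% of the span, coloured by the replicate lists that held them; the lower panel gives the strength (−log10 q) of each peak, and the tall ones stand in the middle and right parts, with a maximum of 70.7.

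The strongest chromosome II region was 6887855 to 6892732, 4878 bp wide, with a combined q of 2.15e-71, rank 10 of the whole combined list. Replicate 2 called nearly the same interval with q = 1.01e-58, its strongest on this chromosome, and replicate 1 called 2652 bp of it with q = 1.04e-10, at rank 6 on II. The next region, 10541871 to 10549751, spanned 7881 bp with a combined q of 2.71e-66. Replicate 2 gave it as a single peak of 7830 bp with q = 1.03e-36, while replicate 1 broke it into 3 peaks, the strongest with q = 2.54e-14. Both regions were found in every list, with narrower calls in replicate 1.

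At 9933754 to 9937969 the combined q was 6.25e-56, the replicate 2 q 2.32e-42 and the strongest replicate 1 q 1.81e-07. The region 10009160 to 10016458 was divided into 3 peaks in each replicate list. In replicate 1 they had ranks 1, 30 and 34 on II, and the first of these, 10012314 to 10015288 (q = 4.54e-17), had rank 9 of that whole list. In replicate 2 the strongest of the 3 had rank 25 on II (10009142 to 10013197, q = 1.27e-13). The combined list gave 1 peak of 7299 bp with q = 1.15e-48. At 9616978 to 9622366 the q-values were 1.32e-48 in the combined list, 2.20e-30 in replicate 2 and 1.02e-12 in replicate 1, and the called widths were 5389, 5366 and 3061 bp.

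A short distance to its left, 9598637 to 9607427 was the widest region of the chromosome at 8791 bp (combined q = 2.00e-36). Replicate 2 called 8253 bp there with q = 9.44e-27 as the stronger of 2 peaks. Replicate 1 held only 382 bp of it, 4.35% of the combined width, with q = 5.36e-03. The region 8449690 to 8453095 (combined q = 1.26e-33) was shared unevenly too: the replicate 1 peak, 8449694 to 8450229 (q = 1.94e-04), and the stronger replicate 2 peak, 8450617 to 8453109 (q = 8.06e-17), lay side by side without overlap, and the second of the 2 replicate 2 peaks met the replicate 1 peak. By contrast, 5543324 to 5544517 was compact and well matched. It was the narrowest of the 15 strongest, 1194 bp, with called widths of 1077 bp in replicate 1 (q = 4.15e-12) and 1198 bp in replicate 2 (q = 2.75e-21), and the combined q was 1.32e-33.

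The remaining 7 of the 15 had combined q-values from 1.33e-29 to 5.51e-26. Of these, 6343914 to 6349185, 5335489 to 5341384, 9484872 to 9487985, 8742462 to 8748126 and 10549986 to 10557727 were in both replicate lists, with replicate 1 q-values of 9.86e-12, 1.21e-07, 8.01e-04, 9.73e-08 and 1.47e-03 and replicate 2 q-values of 2.34e-22, 3.10e-14, 5.94e-18, 3.25e-19 and 1.13e-21. The other 2, 14598264 to 14602564 and 11149834 to 11153440, were absent from the replicate 1 list. The former was the 1 region of the 15 whose combined q (3.58e-29) was larger than its replicate 2 q (1.32e-29), and it was the single member of the 15 beyond 12 Mb. All 15 were in the replicate 2 list, which covered from 80.2% to 100% of their widths, and the 13 that replicate 1 held were covered there over 4.35% to 90.2%.

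Strength and width went together on chromosome II. Across its 390 peaks Spearman's rho of width and strength was 0.49, and on the other chromosomes it was 0.45 to 0.48. This is a description over peaks. A wide region can reach a small q-value at equal occupancy, and its part in this relation was not tested. Of the 15 strongest peaks 14 were wider than 2000 bp, and 8 of the 10 widest were among the 15 strongest. The exceptions among the 10 widest were 10444868 to 10451110 (6243 bp, q = 4.05e-19) and 8014812 to 8019935 (5124 bp, q = 3.62e-20), both in replicate 2 and not in replicate 1. Peaks wider than 2000 bp were 42 of 390 (10.8%, 95% interval 7.87 to 14.3), against 9.4% of all 2436 combined peaks, and they supplied 44.3% of the bases covered on II. Replicate 2 held 39 of them and replicate 1 held 20.

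Narrow regions could also be strong. Among the 50 strongest chromosome II peaks 10 were narrower than 600 bp, and 8 of these 10 were in both replicate lists. Of all the 50 strongest, 31 (62%) were in both. These were singled out after their values were seen. The leading one, 8561140 to 8561580, measured 441 bp and had rank 19 on II (combined q = 3.76e-21). Replicate 1 called 374 bp of it (q = 6.85e-08) and replicate 2 445 bp (q = 2.28e-14). The next were 14561514 to 14561914 (401 bp, q = 3.73e-18) and 5844552 to 5845135 (584 bp, q = 1.43e-16). Of the 6 such strong peaks in the left part, 4 were of this narrow kind: 4047910 to 4048228, 915270 to 915670, 2564940 to 2565316 and 4299154 to 4299655, with combined q-values from 6.59e-14 to 2.27e-09.

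**Figure D3:**
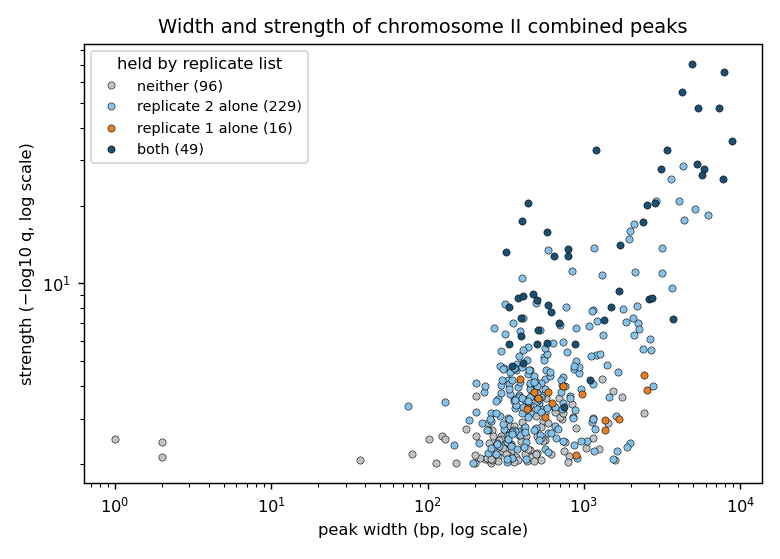
Width (horizontal axis, bp, log scale) against strength (−log10 q, log scale) of the 390 chromosome II combined peaks, coloured by the replicate lists that held them. Peaks in both lists gather at the top, including narrow ones near 400 bp, and peaks in neither list lie at the bottom.

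The replicate lists were compared with the combined list and with each other. By its name the combined list draws on the ChIP samples of both replicates, so overlap with it is not independent support. Only the overlap of replicate 1 with replicate 2 compares separate ChIP samples. Of the 390 combined peaks, 49 (12.6%, 95% interval 9.44 to 16.3) overlapped a peak in both replicate lists by at least 1 bp, against 12.9% of all combined peaks. Replicate 1 held 65 (16.7%, against 15.4% of all) and replicate 2 held 278 (71.3%, 66.5 to 75.7, against 68.9% of all). In neither list were 96 peaks (24.6%, 20.4 to 29.2, against 28.6% of all). On chromosome I replicate 2 held 52.03% and neither list held 46.7%, so chromosome I lowers the shares of all peaks held by a replicate and raises the share held by neither. On III, IV, V and X the share in both lists ran from 13.2% to 16.4% and the share in replicate 2 from 71.4% to 73.2%, so chromosome II stood lowest of these 5 in both. The interval of II held all of these values except the 16.4% of X.

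Stronger combined peaks were more often in the replicate lists. Combined strength draws on the same ChIP samples as those lists, so this relation is not independent support. How much of it comes from the shared samples was not tested. The 50 strongest chromosome II peaks were all in the replicate 2 list, and 31 of them were in replicate 1. The peaks ranked 51 to 100 were again all in replicate 2, with 14 in replicate 1. Of the peaks ranked 101 to 200, replicate 2 held 85 and replicate 1 held 11. Among ranks 201 to 300 these numbers were 59 and 8, and of the 90 weakest they were 34 and 1. The first rank on II that replicate 1 lacked was 10, the first that replicate 2 lacked was 129, and the first in neither list was 135. Median strength was 9.36 for peaks in both lists, 3.78 in replicate 2 alone, 3.52 for the 16 peaks in replicate 1 alone, and 2.43 in neither. The median width of the peaks in both lists was 874 bp on II, while over all chromosomes it was 1190 bp.

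Seen from the replicate lists, 56 of the 74 replicate 1 peaks on II (75.7%, 95% interval 64.3 to 84.9) had a partner in replicate 2. Over all chromosomes 82.5% of replicate 1 peaks did. The share was 69.2% on I, with 26 peaks, 82.3% on X, 85.3% on III, 87.01% on IV and 87.1% on V. Chromosome II was thus lowest but for I, and its interval held only the values of I and X. The difference was not tested. In the other direction 50 of 300 replicate 2 peaks (16.7%, 12.6 to 21.4) were matched in replicate 1, where 17.5% of all were. All of the 30 strongest replicate 1 peaks on II had a partner, and 26 of the remaining 44 did. Across the 56 partnered peaks, strength was related with a Spearman rho of 0.44 and a Pearson r of 0.38, and width with 0.80 and 0.69. These are relations across peaks that share their chromosome and libraries, with no p. The combined list held 72 of the 74 replicate 1 peaks and 282 of the 300 replicate 2 peaks.

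Edges were placed almost alike in replicate 2 and the combined list. The 2 lists share the replicate 2 samples, so this closeness does not measure how well edges repeat. For the 270 combined peaks with exactly 1 replicate 2 peak, starts differed by a median of 15 bp and ends by 12 bp. For the 60 with exactly 1 replicate 1 peak the medians were 63.5 and 71.5 bp. In the 49 peaks found in both lists, replicate 2 covered a median of 92.8% of the combined width and replicate 1 68.0%. A combined peak spanned more than 1 replicate 1 peak in 5 cases and more than 1 replicate 2 peak in 8, with at most 3 in either.

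The strongest replicate 2 peaks on II that replicate 1 lacked were 14598295 to 14601744 (q = 1.32e-29), 11149833 to 11153455 (3.60e-23), 8479522 to 8484125 (2.09e-21), 8014967 to 8019800 (7.56e-19) and 8450617 to 8453109 (8.06e-17), all in the combined list and at least 2493 bp wide. The first had rank 5 on II in replicate 2 and rank 30 in that whole list. The reverse class was weak. Of the 18 replicate 1 peaks without a replicate 2 partner, the strongest was 11748500 to 11750081 with q = 3.13e-04, rank 31 on II. It was followed by 15165802 to 15166383 (6.23e-04), 9356525 to 9357042 (1.09e-03), 12054025 to 12055151 (1.11e-03) and 10382134 to 10382667 (1.89e-03). These 5 were in the combined list with q-values between 9.39e-05 and 9.96e-04. Only for the peak at 11748500 was the combined q, 9.96e-04, larger than the replicate 1 q.

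Neighbouring peaks on chromosome II were separated by a median gap of 20.0 kb (20023 bp, 95% interval 15045 to 26430), from the last base of 1 peak to the first base of the next. On the other chromosomes the medians were 17616 bp on III, 18182 on I, 19752 on IV, 20008 on X and 32251 on V, so II lay close to all of them but V. Gaps covered a wide range. The smallest on II was 209 bp and the smallest on the other chromosomes 203 to 212 bp, so no pair of separate peaks stood closer than about 200 bp in the combined list. Of the 389 gaps, 53 were under 1 kb (13.6%, 95% interval 10.4 to 17.4), where the other chromosomes had 11.4% to 14.4%. At the other end 39 gaps exceeded 100 kb (10.03%, 7.23 to 13.5), where the others had from 6.17% on III to 20.5% on V. These 39 gaps took up 39.3% of the span.

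**Figure D4:**
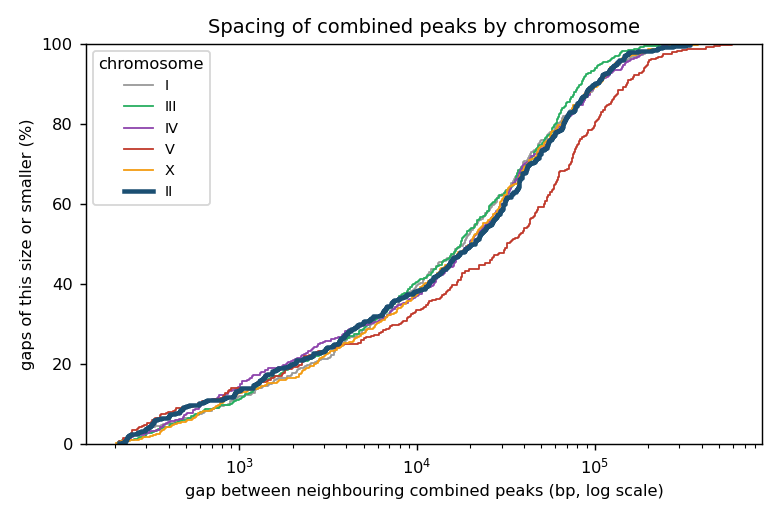
Cumulative share (vertical axis, percent) of gaps between neighbouring combined peaks of a given size or smaller (horizontal axis, bp, log scale), 1 line per chromosome with II drawn thick. The line of II runs among those of I, III, IV and X, with a median of 20023 bp, and V lies to the right with 32251 bp.

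The longest stretches without a combined peak were mostly on the left. They were 1852075 to 2194660 (342586 bp), 2974830 to 3295264 (320435 bp), 12520286 to 12796051 (275766 bp), 13575785 to 13814006 (238222 bp) and 3524028 to 3752601 (228574 bp). The longest held 2 replicate 2 peaks that did not enter the combined list, and the other 4 held no peak of either replicate list. Of the 39 gaps over 100 kb, 17 began before 5 Mb, where 78 of the 390 peaks lay, and 5 of the 39 held a peak of a replicate list.

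Peaks were also bunched. Joined wherever the gap was 5 kb or less, 93 of the 390 chromosome II peaks (23.8%, 95% interval 19.7 to 28.4) fell into 25 clusters of 3 or more, against 21.2% of all combined peaks, and the other chromosomes had from 18.1% on V to 22.7% on IV. The value on II was the highest of the 6, and its interval held the values of I, III and IV. A further 102 peaks stood in pairs and 195 stood alone. Clusters were rare on the left, with 2 in the left part, where 7.41% of peaks were clustered against 27.4% in the middle and 28.95% in the right part. Closeness within 5 kb depends on density, which was lowest there. On V the share in the left part, also its sparsest, was 3.95%, and on the other 4 chromosomes it ran from 15.7% to 28.4%. Clustered peaks had a median width of 584 bp and a median strength of 4.15, and the 297 others 452 bp and 3.40. Replicate 1 held 16.1% of the clustered and 16.8% of the other peaks, and replicate 2 held 75.3% and 70.03%.

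The largest cluster, of 8 combined peaks, ran from 11384138 to 11395009. It was the largest on any chromosome, the next being 7 on I and on X. Its peaks were 130 to 928 bp wide, covered 35.6% of 10.9 kb and had gaps of 332 to 2075 bp. The strongest member, 11387643 to 11388408, had a q of 8.03e-09 and rank 57 on II, and the weakest had rank 317. Replicate 2 also had 8 peaks there, but not the same 8. Its strongest was 11391751 to 11393700 (1950 bp, q = 2.45e-10), which reached over 2 separate combined peaks, and 1 combined peak had no replicate 2 partner. Replicate 1 had none.

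**Figure D5:**
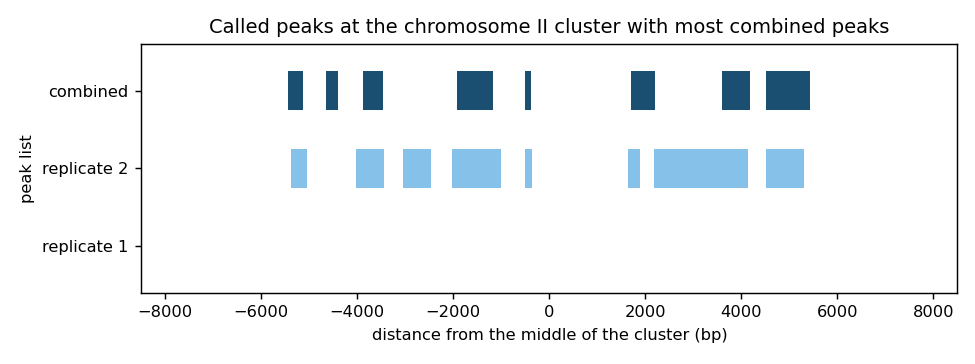
Peaks called in each list at the cluster of 8 combined peaks, by distance from its middle in bp (horizontal axis); each bar spans a called peak. Combined and replicate 2 peaks lie side by side with different joins on the right, and the replicate 1 row is empty.

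The next in size held 6 and 5 combined peaks. At 7226994 to 7238569 the 6 peaks fell into 2 groups split by 4620 bp, with the strongest, 7229667 to 7230974, at q = 1.75e-11, and replicate 2 held 4 of them. At 9494792 to 9502315, 1 strong narrow peak, 9500827 to 9501413 (587 bp, q = 3.39e-14), had 4 weaker companions of ranks 220 to 356. At 12344786 to 12354133 the leading peak of 5 had q = 8.56e-08, and 1 of the 5, 12351962 to 12352464, was in both replicate lists. The 5 peaks at 13279299 to 13291691 were weak, with q from 2.43e-04 to 2.99e-03, and none of them was in either replicate list. Among the 25 clusters 24 had a member in replicate 2 and 10 a member in replicate 1, so this was the 1 cluster known from the combined data alone.

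The cluster with the smallest q, named after its value was seen, held fewer peaks. At 10541871 to 10563777 lay 4 combined peaks, among them those of rank 2 and rank 15 on II. They covered 84.4% of 21.9 kb. Gaps between them were from 234 to 2596 bp. Replicate 1 called 5 peaks inside this stretch and replicate 2 called 4, and 3 of the 4 combined peaks were in both lists. The rank 2 peak and its right neighbour, of 7881 and 7742 bp, were 234 bp apart.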

How the data were processed

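ChIP samples of 2 biological replicates (2 samples each) and 3 input samples of replicate 2 were sequenced. Peak lists were deposited for replicate 1, for replicate 2 and, going by the file name, for both combined. They were made by the authors with PeakSeq on WormBase WS190, per the file headers, and the deposited value of a peak is a q-value. The merging of samples, the input used, aligner, filters and versions are not given in the sources used. No read counts were given, so depth is unknown.

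Width, strength (−log10 q), rank (ties by width), gaps, overlap (at least 1 bp), clusters (gaps up to 5 kb, 3 or more peaks) and windows of 1 Mb by peak midpoint were derived in Python 3.11.15 (scipy 1.17.1, numpy 2.4.6, pandas 2.3.3); matplotlib 3.10.9 drew the figures. No peak was filtered out. Intervals are 95% Clopper-Pearson for shares and order-statistic for medians. Of these steps, gaps, overlap, clusters and the interval of a median were tested on simulated data. Alternatives were other overlap rules, a q of 1e-04 or less, peaks under 50 bp left out, cluster gaps of 2 and 10 kb, each replicate list alone and other definitions of the centre.

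Regions named are the 15 strongest and 10 widest combined peaks on II, and the 5 strongest of each replicate list that the other lacks. Also named are the 5 longest gaps, the 5 largest clusters and the 3 windows with most and 3 with fewest peaks. The rest are those said to be picked by their values. The chromosome and all lists were chosen with earlier results of these data known. Genes were not named, since an annotation of WS190 was not used here.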

Additional observations from a re-analysis of the deposited data

How the results depend on the processing

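Of 36 recomputed values 19 stayed within the interval of the reported value and 17 moved. With midpoints required within 200 bp, the shares of chromosome II peaks in both lists, in replicate 1 and in replicate 2 were 7.95%, 11.5% and 62.05%, a rule that wide peaks meet less easily. Among the 158 peaks with q of 1e-04 or less they were 30.4%, 32.3% and 96.8%, the median width was 731 bp, the median gap 52669 bp and the clustered share 18.35%; fewer and stronger peaks enter there by construction. Clustered shares were 12.6% at gaps up to 2 kb and 33.6% up to 10 kb. The middle 50% of the span, a longer part by definition, held 55.4% of peaks. With either replicate left out, so that the other list stands alone, the median gap ran from 27588 to 119814 bp, both outside the reported interval. The median width ran from 500 to 573.5 bp, the share of all peaks from 16.4% to 17.7% and the clustered share from 13.5% to 20.3%, and of these 3 only the values of the replicate 1 list alone (573.5 bp, 17.7% and 13.5%) lay outside. The share in the middle part, from 40.5% to 42.7%, stayed inside. No paired analysis was possible because the lists give 1 pooled value per peak and no comparison of groups was fitted. Unknown depth limits every difference between lists: absence from the replicate 1 list is no sign of absent binding.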

Other observations

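A few combined peaks on chromosome II were only some bases long. Of the 34 combined peaks narrower than 50 bp on all chromosomes, 4 were on II. They were 1 base at 8675046, 2 bases at 2194661 and at 13443336, and 37 bases at 12344786, with q-values from 3.17e-03 to 8.59e-03, and none overlapped a peak of either replicate list. The peak of 2 bases at 2194661 is also the right edge of the longest gap of the chromosome, so that gap would be longer without it.

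Short gaps make the number of regions depend on where a region is taken to end. Of the 389 gaps on II, 36 were under 500 bp. Joining across these gives 354 regions, and joining across gaps under 1000 bp gives 337, where 390 were called.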
